A study of Homo sapiens with 131 samples.

Results

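The least and the most replicated cells were compared within one sorted mid-S population of HAP1, a human leukaemia-derived line that carries BCR-ABL1 and is nearly haploid, which lets replication be read as a step between 1 and 2 copies of a locus. The DNA and the RNA of each sorted cell were sequenced separately by scRR-seq with the scRR1 protocol, and all cells were untreated. Cells were ranked by the replication score, the percentage of called 40-kb bins in the 2-copy state, and the 14 cells with the highest and the 14 with the lowest scores were taken, so that 28 of the 56 cells in the tables were chosen by their measured DNA copy states. The labels list 63 mid-S cells, and the other 7 were not analysed here. They derive from 1 experiment on 1 line, so p-values cover only the spread between these cells.

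The 14 most replicated cells had scores of 58.5% to 67.2% with a median of 63.9% (mean 63.8% ± 2.55, SD), and the 14 least replicated cells had 39.7% to 47.2% with a median of 43.4% (mean 43.2% ± 2.37, SD). These values chose the groups and are a description only. The thresholds lie in a continuous range: the lowest of the most replicated cells had 58.526% and the nearest cell outside 58.515%, while the highest of the least replicated cells had 47.177% and the nearest cell outside 47.535%. For 1 member the pairing of DNA with RNA is in doubt. The study's sample list and the deposited table assign the DNA profiles of a few consecutively numbered cells differently, and 1 of these cells is among the most replicated cells (here the doubtful cell). Some of the results that rest on it are given also without it or with the cell of the next number in its place, an alternative chosen after seeing the data.

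S-phase is the stage of the cell cycle in which each locus is copied once, with gene-rich, GC-rich regions generally copied early and gene-poor, AT-rich regions late. Before it, E2F factors switch on genes for origin licensing and DNA synthesis, among them the MCM helicase genes. Towards its end, MYB-MuvB and FOXM1 switch on genes for chromosome condensation and mitosis. MCM3 is a subunit of the MCM helicase, UHRF1 brings the maintenance DNA methyltransferase to newly copied DNA, and TOP2A untangles DNA before mitosis. These genes were used as markers of the order of cells in the cycle. They were chosen with earlier results of these data known, so their differences between the groups are no independent check.

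The promoters of these markers are shown because their RNA differed between the groups with opposite signs. Each RefSeq window (GRCh38.p14) holds 250 bases before the annotated start and 30 bases from it, with the start base counted as 0, and runs 5′ to 3′ on the strand of the gene. Capitals mark the words searched on both strands: TTTGGCGC, TTTCCCGC, TTTGCCGC and TTTCGCGC for E2F, CCAAT for NF-Y, and TTTGAA and TTCGAA for the cell cycle homology region (CHR), the element that MuvB complexes bind. MCM3 lies at chr6:52284713-52284992 on the minus strand, UHRF1 at chr19:4909251-4909530 on the plus strand (of its 3 RefSeq windows the one with the lowest coordinates, while the gene record used for the RNA begins further upstream), and TOP2A at chr17:40417867-40418146 on the minus strand.
MCM3: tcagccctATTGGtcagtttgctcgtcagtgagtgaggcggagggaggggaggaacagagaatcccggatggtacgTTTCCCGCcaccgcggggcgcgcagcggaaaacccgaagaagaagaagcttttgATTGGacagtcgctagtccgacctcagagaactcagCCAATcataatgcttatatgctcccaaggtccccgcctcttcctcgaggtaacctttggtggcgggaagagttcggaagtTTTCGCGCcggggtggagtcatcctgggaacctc
UHRF1: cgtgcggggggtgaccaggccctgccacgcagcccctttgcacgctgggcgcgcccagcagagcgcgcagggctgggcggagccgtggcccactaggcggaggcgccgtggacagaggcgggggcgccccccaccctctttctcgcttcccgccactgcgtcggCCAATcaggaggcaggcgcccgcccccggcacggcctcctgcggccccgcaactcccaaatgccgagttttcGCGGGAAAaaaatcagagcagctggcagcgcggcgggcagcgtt
TOP2A: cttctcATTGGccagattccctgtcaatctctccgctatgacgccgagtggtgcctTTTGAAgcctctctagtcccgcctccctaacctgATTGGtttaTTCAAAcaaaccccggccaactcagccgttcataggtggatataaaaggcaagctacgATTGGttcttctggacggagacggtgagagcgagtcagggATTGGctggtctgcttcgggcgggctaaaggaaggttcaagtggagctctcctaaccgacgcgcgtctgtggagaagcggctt
The E2F words occurred at 2 positions in the MCM3 window and at 1 in the UHRF1 window, and in 3.14% of 35116 promoter windows of the same length. None was found in the TOP2A window, which held 2 CHR words, against 15.6% of all windows with at least 1. CCAAT, found in 33.7% of windows, occurred at 3 positions for MCM3, 1 for UHRF1 and 4 for TOP2A. No word overlapped another in these windows, and a match is a description of letters, not of binding.

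Cells were divided by their number into 2 sets, up to 65 and above, called library sets here. Whether these sets were prepared or sequenced separately is not known, and the groups were unequal in them. The most replicated cells had 4 cells of the first set and 10 of the second, and the least replicated cells had 11 of the first and 3 of the second. The labels give no batch, so the set was a term in every model, and the differences within the first and the second set are given for many of the named genes. The number of genes with at least 1 TPM, the count per transcript length scaled to a common total per cell, had a lowest value, median and highest value of 12045, 13737 and 15028 in the most replicated cells, against 12069, 13102 and 14476 in the least replicated cells. The ranges overlapped almost fully. The difference of the means was 622.5 genes, and 341.9 genes beyond that of the library sets (two-sided permutation within sets p = 0.178). The mitochondrial share of the TPM ran from 2.57% to 17.4% with a median of 4.29% in the most replicated cells, against 2.94% to 18.3% with a median of 10.3% in the least replicated cells. Within sets these medians lay close together, at 10.1% against 10.7% in the first set and 3.26% against 3.84% in the second (difference beyond the sets -0.39 points, permutation within sets p = 0.696). The unspliced total per cell had medians of 632139 in the most replicated cells and 717834 in the least replicated cells, but its means within sets lay the other way, at 869278 against 823653 in the first set and 610923 against 575739 in the second (difference beyond the sets 30840.0, permutation within sets p = 0.57). The unit of these unspliced values is not certain, and they were taken to be expected read counts. However, the highest total per cell in the 2 groups, 1267760 in a most replicated cell, exceeds the reads per cell that the methods give. Summed TPM of BCR and ABL1 ran from 0.75 to 58.9 in the most replicated cells and from 2.80 to 116 in the least replicated cells. Among 11 blood cell genes, 9 were at 0 in every most replicated cell and 9 in every least replicated cell, with PTPRC at 0 in both. The summed TPM of this list ran from 0 to 3.18 in the most replicated cells and from 0 to 36.1 in the least replicated cells. The summed TPM of 5 epithelial genes had a median of 35.98 in the most replicated cells and 19.0 in the least replicated cells. The ranges were 10.9 to 60.96 and 3.37 to 44.9. KRT18 alone had medians of 31.15 and 18.99 TPM in these groups, while KRT8 had 0.87 and 0.98 TPM. The part of the epithelial genes in the results was not tested.

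Of 56881 bins, 2941 (5.17%) had a 2-copy share at least 60 percentage points higher in the most replicated cells, and 0 had one lower by that much. All values of bins follow from the ranking itself and are given without a test. The median difference over bins called in at least 10 cells of each group was 14.3 points. 71.4% of these bins lay above 0, 23.7% at 0 and 4.93% below 0. The 60-point bins were at 2 copies in a median of 85.7% of the most replicated cells, against 14.3% of the least replicated cells, and in 53.6% of the 28 cells between them. Cell by cell, 67.2% to 92.9% of these bins were at 2 copies in the most replicated cells (median 87.8%), against 10.9% to 29.5% in the least replicated cells (median 15.9%). The cells between them spread over the space between, from 36.1% to 71.6% (median 56.4%).

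A further 13709 bins (24.1%) were at 2 copies in at least 80% of the cells of both groups, and 11230 (19.7%) were at 2 copies in at most 20% of both. The bins that changed lay between these classes in base composition and gene content. Their median GC content was 39.3%, against 42.7% in bins at 2 copies in both groups and 37.9% in bins at 1 copy in both. It was close to the 39.5% over all bins and to the 39.0% of the bins in none of these classes (50.85% of all). The bins that changed held 2.82 starts of expressed genes per Mb, against 12.8 and 1.35 in the 2-copy and the 1-copy class, and 5.64 over all bins. In other words, 9.35% of the bins that changed held the start of an expressed gene, against 33.3% of bins at 2 copies in both groups and 4.61% of bins at 1 copy in both. Over all bins this share was 15.9%, and in the bins of none of these classes 12.6%.

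The difference was spread unevenly over the chromosomes. Chromosome 3 had the largest mean difference, with a 2-copy share of 71.4% in the most replicated cells and 46.1% in the least replicated cells, followed by chromosome 4 with 60.4% and 37.0%. Chromosomes 19, 17 and 22, all rich in genes, had the smallest differences, and they were already largely at 2 copies in the least replicated cells: 71.7% against 62.6% on chromosome 19, 73.1% against 62.9% on chromosome 17 and 78.5% against 68.1% on chromosome 22. Chromosome 21 had the lowest share in both groups, with 48.4% and 30.7%. By the share of 60-point bins, chromosomes 7 (7.28%) and 20 (7.27%) led and chromosome 19 (1.33%) came last.

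**Figure D1:**
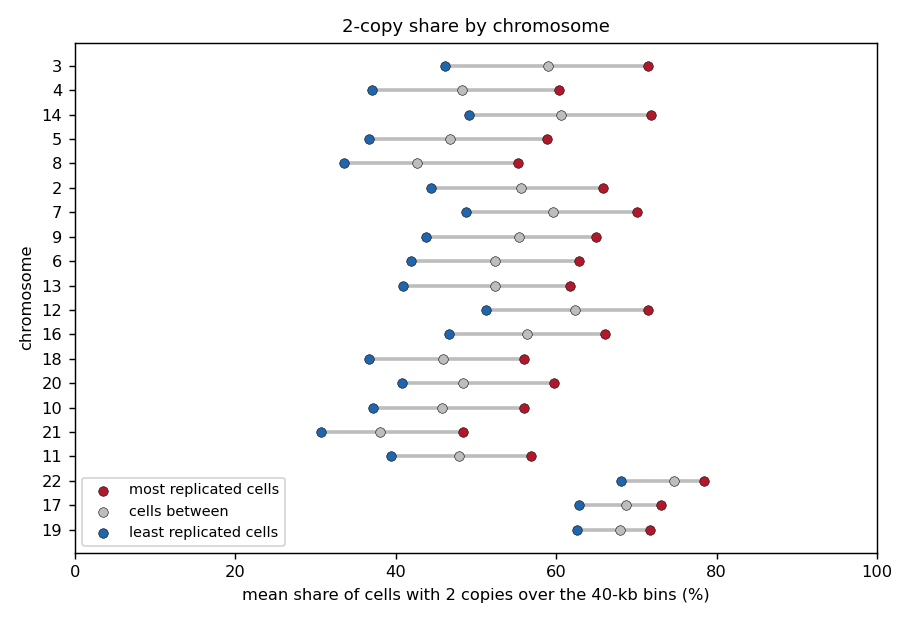
Mean share of cells at 2 copies over the 40-kb bins of each chromosome (x axis, percent) for the most replicated cells (red), the cells between (grey) and the least replicated cells (blue). Chromosomes are ordered by the difference, from chromosome 3 (71.4% against 46.1%) at the top to chromosome 19 (71.7% against 62.6%) at the bottom.

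The 60-point bins formed 625 runs with a median length of 120 kb, and 174 of them were a single bin. The 84 runs of at least 10 bins held 40.9% of the bins. The longest run, chr6:13400001-14520000 (hg38, 1120 kb), was at 2 copies in 91.1% of the most replicated cells, against 15.8% of the least replicated cells, and holds NOL7, RANBP9, SIRT5 and MCUR1. The run at chr7:103600001-104600000, with ORC5, a subunit of the origin recognition complex, and RELN, an extracellular matrix protein of the brain, had shares of 92.3% in the most replicated cells and 20.0% in the least replicated cells. The run at chr5:89000001-89920000, with shares of 92.5% and 11.5%, held no start of an expressed gene. Long runs of bins that changed thus included regions with and without expressed genes.

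The markers differed between the groups with opposite signs, MCM3 and UHRF1 below 0 and TOP2A above 0, and none passed the adjusted threshold. MCM3 (chr6:52264014-52284881, hg38) had a lowest value, median and highest value of 79.02, 163 and 268 TPM in the most replicated cells, against 200.3, 298 and 483 TPM in the least replicated cells. All 14 most replicated cells lay below the median of the least replicated cells, and 11 of them below the lowest of these. The difference in log2(TPM + 1) was -1.05 (SE 0.22), about 163 against 298 TPM at the median (limma p = 2.27e-05, adjusted p = 0.129 over 17132 genes). It was -1.37 within the first library set and -0.66 within the second. With the doubtful cell replaced by its neighbour it was -1.05 (limma adjusted p = 0.124), and with the score as a number over all 56 cells it passed the threshold (limma adjusted p = 0.0385). The fit over 56 cells used the deposited pairing for every cell and was not repeated without the doubtful cell. The gene itself was at 2 copies in 69.2% of the most replicated cells and in 14.3% of the least replicated cells.

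UHRF1 (chr19:4903080-4962154) had 26.8, 58.2 and 112.95 TPM as lowest value, median and highest value in the most replicated cells, against 58.2, 146 and 233 TPM in the least replicated cells. All 14 most replicated cells were below the median of the least replicated cells, and 9 of the 14 least replicated cells were above the highest of the most replicated cells. The difference was -1.07 (SE 0.28, limma p = 0.000627, adjusted p = 0.538), with -1.45 in the first set and -0.59 in the second. TOP2A (chr17:40388525-40417896) had 458, 821 and 1348 TPM in the most replicated cells, against 173, 509.6 and 900.0 TPM in the least replicated cells. 13 of the 14 most replicated cells lay above the median of the least replicated cells, and 6 above the highest. The difference was 0.71 (SE 0.23, limma p = 0.00395, adjusted p = 0.649), with 0.89 and 0.49 within the sets. Both UHRF1 and TOP2A were at 2 copies in 100% of called cells of both groups. The 28 cells between had medians of 241 TPM for MCM3, 107.45 TPM for UHRF1 and 699 TPM for TOP2A, each between those of the outer groups.

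**Figure D2:**
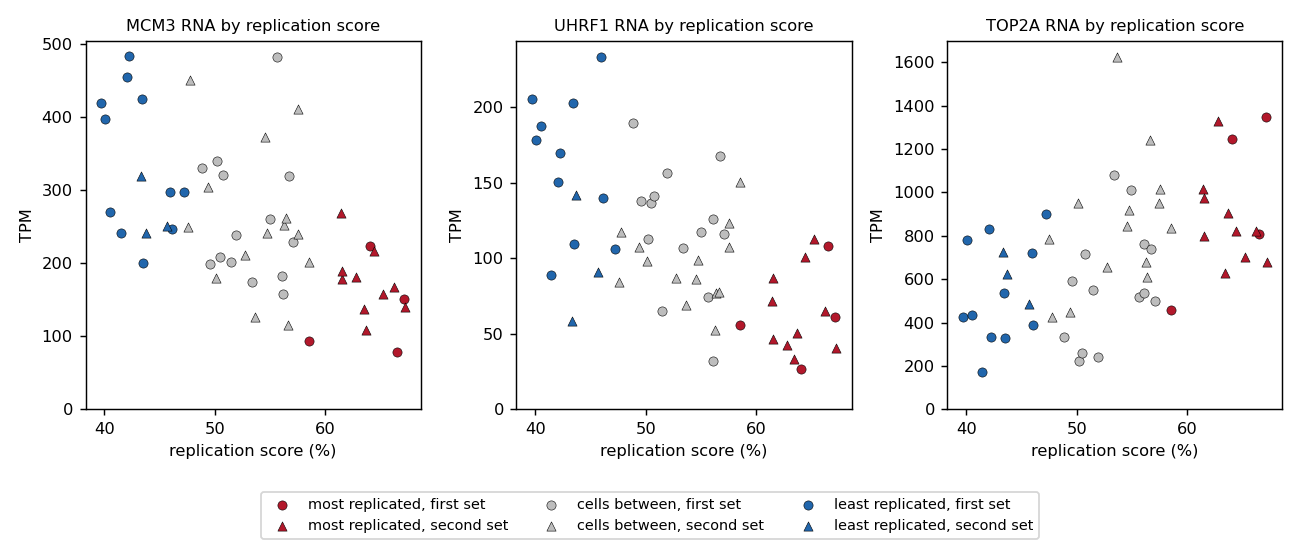
TPM of MCM3, UHRF1 and TOP2A (y axes) against the replication score in percent (x axis) in the 56 cells, in red for the most replicated, grey for the cells between and blue for the least replicated, with circles for the first and triangles for the second library set. The median MCM3 level was 163 TPM in the most and 298 TPM in the least replicated cells, and TOP2A had 821 and 509.6 TPM.

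Over all genes, few differences passed the threshold. Of 17132 genes tested, 2 were higher in the most replicated cells at a limma adjusted p under 0.05 (0.0117%) and 0 were lower (0%). At an unadjusted p under 0.05, 591 genes were higher (3.45%) and 460 lower (2.69%). The median difference of all genes was 0.04, with 9051 genes above 0 and 8081 below.

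FKBPL and NFYC-AS1 were the genes called. FKBPL, a relative of the FK506-binding proteins, at chr6:32128707-32130288, had a lowest value, median and highest value of 0, 7.36 and 24.8 TPM in the most replicated cells, against 0, 0 and 5.01 TPM in the least replicated cells. It was detected in 11 of the most replicated cells and in 1 of the least replicated cells. Among the 28 cells between, it was at 0 in 21. The difference was 2.96 in log2(TPM + 1) (SE 0.55, limma adjusted p = 0.0429), with 3.84 and 1.84 within the sets. FKBPL passed the filter on low values only with the most replicated cells counted. For this gene the filter was thus not independent of the groups. NFYC-AS1, an antisense transcript of NFYC at chr1:40690380-40692066, had 0, 3.24 and 24.97 TPM in the most replicated cells and was listed at 0 in all 14 least replicated cells (limma adjusted p = 0.0429). With no source here on strand in the counting, its reads and those of NFYC cannot be told apart. Both calls depended on single cells: FKBPL was called in 7 and NFYC-AS1 in 5 of 28 refits that each left out 1 cell, and with the doubtful cell replaced by its neighbour the limma adjusted p values were 0.108 for FKBPL and 0.081 for NFYC-AS1. In NFYC-AS1, the 4 most replicated cells of the first set held 10.1 to 24.97 TPM, and the median of the 10 cells of the second set was 0.

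Of the genes that missed the threshold, those with the lowest p in each direction are given as values. HDAC9, a class IIa histone deacetylase, had 48.4, 109.005 and 364 TPM as lowest value, median and highest value in the most replicated cells, against 17.03, 36.4 and 151 TPM in the least replicated cells (difference 1.79, 2.30 and 1.15 within the sets, limma adjusted p = 0.161). All 14 most replicated cells were above the median of the least replicated cells. SMTN, which encodes smoothelin, a protein of smooth muscle, had 9.47, 21.3 and 74.6 TPM, against 0, 0.305 and 30.9 TPM (difference 2.99, 2.93 and 3.07 within the sets, limma adjusted p = 0.372). CDC20, the activator of the anaphase-promoting complex, had 83.1, 153 and 301 TPM in the most replicated cells, against 8.77, 118 and 292 TPM in the least replicated cells. Its ranges overlapped almost fully, and its difference of 1.25 (limma adjusted p = 0.418) was 0.70 in the first set and 1.95 in the second. PELI3, a ubiquitin ligase of innate immune signalling, had a difference of 2.48, with 3.13 and 1.66 within the sets, and CDK17, a cyclin-dependent kinase, one of 2.77, with 2.04 and 3.69 (limma adjusted p = 0.432 each). CDK17 was at 2 copies in 100% of called most replicated cells and in 28.6% of the least replicated cells.

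In the other direction, TARS2, the mitochondrial threonyl-tRNA synthetase, had a lowest value, median and highest value of 0.89, 33.98 and 95.5 TPM in the most replicated cells, against 38.3, 72.1 and 118 TPM in the least replicated cells. 13 of the 14 most replicated cells lay below the median of the least replicated cells (difference -1.90, -3.07 and -0.41 within the sets, limma adjusted p = 0.432). LRRC58 had 0.81, 22.6 and 50.2 TPM in the most replicated cells, against 17.02, 60.8 and 116 TPM in the least replicated cells (difference -1.73, -2.70 and -0.49 within the sets, limma adjusted p = 0.516). VGLL3, a cofactor of TEAD transcription factors, had 0, 1.51 and 7.57 TPM, against 0, 10.1 and 44.1 TPM (difference -2.49, -2.56 and -2.40 within the sets, limma adjusted p = 0.538). For both genes, the 14 most replicated cells were all below the median of the least replicated cells.

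No list had a gene called at an adjusted p under 0.05, so lists are described by the count of genes at an unadjusted p under 0.05, set against 3.45% higher and 2.69% lower over all genes, and by their median. Of 43 G1/S genes tested, 5 were lower and 0 higher at this level, with a median difference of -0.34, against 0.04 over all genes, and 37 of 43 had a difference below 0. Leaving out each cell in turn gave 34 to 39 of 43, and the other alternatives 33 to 38. The medians within the sets were -0.28 in the first and -0.35 in the second. Of 17 genes of the MCM helicase and origin licensing, which share members with the G1/S list, 5 were lower and 0 higher, with a median of -0.38. MCM6, a helicase subunit, had 26.7, 107.45 and 367 TPM as lowest value, median and highest value in the most replicated cells, against 74.9, 221 and 342 TPM in the least replicated cells (difference -1.04, -1.61 and -0.31 within the sets, limma p = 0.00273, adjusted p = 0.649). 13 of the 14 most replicated cells were below the median of the least replicated cells, and the remaining cell had the highest value of all 28. MCM4, also a helicase subunit, had 176, 277 and 379 TPM, against 200.1, 418 and 634 TPM (difference -0.53, -0.43 and -0.66 within the sets, limma p = 0.0133, adjusted p = 0.721). All 14 most replicated cells lay below the median of the least replicated cells, although the ranges overlapped. MCM5 had 40.4, 99.4 and 185 TPM in the most replicated cells, against 84.7, 133 and 227 TPM in the least replicated cells (difference -0.64, -0.31 and -1.07 within the sets, limma adjusted p = 0.747).

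Of 36 replication fork genes, 2 were lower, with a median of -0.12, which was 0.04 without the set as a term. POLD1, the catalytic subunit of DNA polymerase delta, had a difference of -0.74 (limma p = 0.0237), with -0.98 and -0.43 within the sets. RPA2, a subunit of the protein that coats single-stranded DNA, had a difference of -1.58 (limma p = 0.00693), with -2.50 and -0.42 within the sets. Its median was nevertheless higher in the most replicated cells, at 114.7 TPM against 105.2 TPM. PCNA, the sliding clamp of the fork, had medians of 276 TPM in the most replicated cells and 342 TPM in the least replicated cells (difference -0.37, limma p = 0.110), while its 2-copy share was 64.3% in the most replicated cells and 0% in the least replicated cells. Of 12 genes of dNTP supply, 0 were at p under 0.05, with a median of -0.21, which was 0.10 without the set as a term. RRM1 and RRM2, the subunits of ribonucleotide reductase, had differences of -0.44 and -0.32, while the median of RRM2 was 453 TPM in the most replicated cells and 391 TPM in the least replicated cells. Of 20 G1/S cyclin and E2F/RB genes, 5 were lower and 0 higher, with a median of -0.44. Among them E2F3, an activating E2F, had a difference of -1.96 (limma p = 0.00905) that was 0.13 within the second set. CCND2, a D-type cyclin, had one of -1.92 (limma p = 0.0151), with -2.00 and -1.82 within the sets.

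Of 54 G2/M genes, 9 were higher and 0 lower at p under 0.05, with a median of 0.34, and 44 of 54 had a difference above 0. Leaving out each cell in turn gave 39 to 47 of 54, and the other alternatives 40 to 46. The median was 0.31 within each library set. NDC80, a kinetochore protein that binds spindle microtubules, had 90.5, 223 and 698 TPM as lowest value, median and highest value in the most replicated cells, against 16.9, 140.2 and 234 TPM in the least replicated cells (difference 1.03, 1.25 and 0.76 within the sets, limma p = 0.00592, adjusted p = 0.649). 7 of the 14 most replicated cells lay above the highest of the least replicated cells. NUSAP1, a spindle-associated protein, had 279.6, 427 and 679.5 TPM in the most replicated cells, against 79.6, 259.6 and 513 TPM in the least replicated cells (difference 0.67, 0.66 and 0.67 within the sets, limma p = 0.00932, adjusted p = 0.703). All 14 most replicated cells were above the median of the least replicated cells. Of 20 mitotic entry genes, 17 had a difference above 0 (median 0.39, with 0.45 within the first set and 0.16 within the second). TTK, a spindle checkpoint kinase, had a difference of 1.04 (limma p = 0.0754), with 1.80 in the first set and 0.07 in the second. MYBL2, a transcription factor that E2F switches on at G1/S and that then acts with MuvB on G2/M genes, was the only one at p under 0.05, and on the lower side. It had 36.8, 114.7 and 192 TPM in the most replicated cells, against 58.9, 130 and 226 TPM in the least replicated cells (difference -0.71, -1.01 and -0.32 within the sets, limma p = 0.00606, adjusted p = 0.649).

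**Figure D3:**
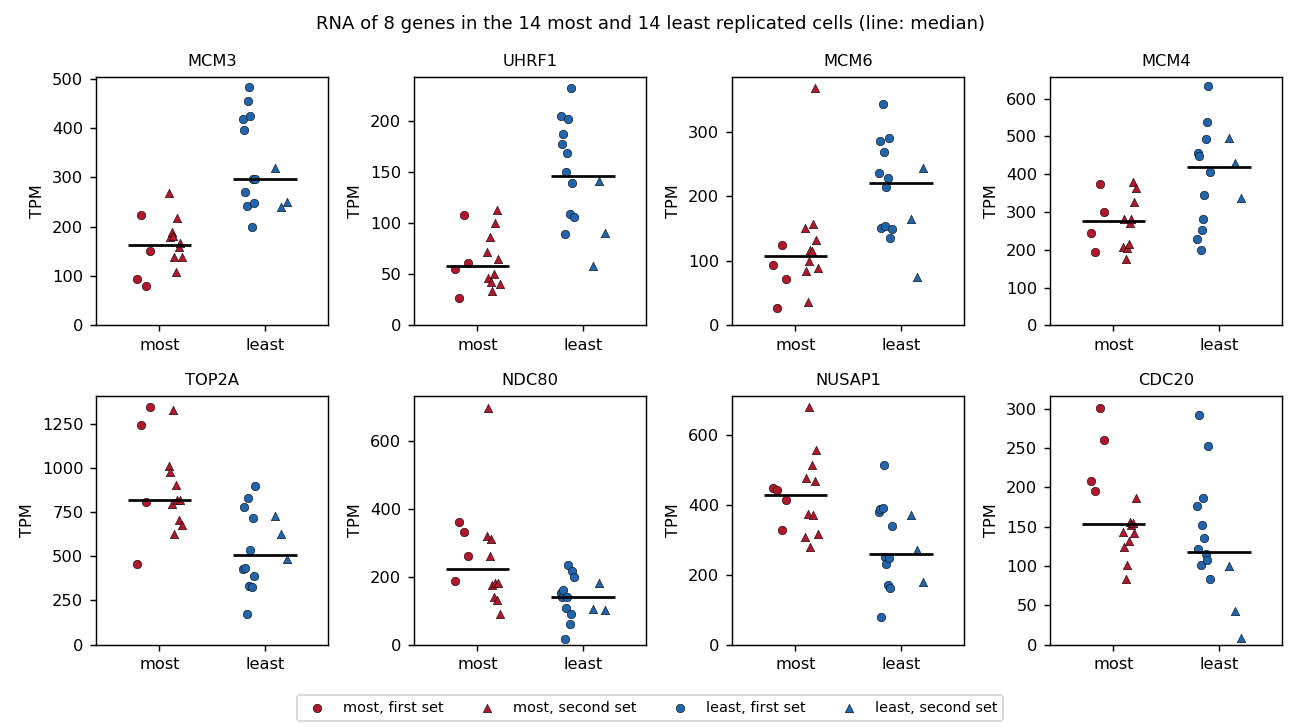
TPM (y axes) of 8 genes in each of the 14 most replicated cells (red, left) and the 14 least replicated cells (blue, right), with circles for the first and triangles for the second library set and a line at the median. The upper row shows MCM3 and the G1/S list genes UHRF1, MCM6 and MCM4. These 4 genes have their lower median in the most replicated cells (MCM6 107.45 against 221 TPM). The 4 G2/M genes of the lower row have their higher median there (NDC80 223 against 140.2 TPM).

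Among the other lists, immediate-early genes had a median of 0.49, which was 0.25 without the set as a term, with 10 of 13 genes above 0 and 2 higher at p under 0.05. The 2 epithelial genes tested had a median of 0.60, with 0 higher and 0 lower at p under 0.05. CCN2, a secreted matricellular protein, had a lowest value, median and highest value of 0, 21.03 and 81.9 TPM in the most replicated cells, against 0, 0.66 and 108.1 TPM in the least replicated cells (difference 2.65, 2.60 and 2.72 within the sets, limma p = 0.00499, adjusted p = 0.649). EGR1, a zinc finger transcription factor, had 0, 6.10 and 47.1 TPM, against 0, 0.74 and 8.67 TPM (difference 1.83, 2.65 and 0.77 within the sets, limma p = 0.0127, adjusted p = 0.721). Both genes had overlapping ranges, with 12 of 14 most replicated cells above the median of the least replicated cells. Of 11 genes of DNA methylation maintenance 2 were lower, UHRF1 and its relative UHRF2 (difference -1.74, limma p = 0.027). Of 6 topoisomerases, TOP2A was on the higher side and TOP3A, which resolves recombination intermediates, on the lower (difference -0.97, limma p = 0.037). Of 19 cohesin and condensin genes, STAG1, a cohesin subunit, was at p under 0.05 (difference 1.08, limma p = 0.0483), and the median was 0.02. Of 14 chromatin assembly genes and 14 checkpoint and p53 genes, 0 were at p under 0.05, with medians of -0.11, which was 0.08 without the set as a term, and 0.04, which was -0.06 within the second set.

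Of the 52 genes that the study listed as changing along S-phase in hTERT-RPE1, an immortalised retinal epithelial line, 50 were tested. 3 were higher and 2 lower at p under 0.05, with a median of 0.09, which was -0.01 and -0.13 within the sets. The study also listed such genes for HAP1 itself, a list not used here. It reported that the hTERT-RPE1 genes did not reveal a path of HAP1 cells through S-phase. ARL6IP1, a protein that shapes the endoplasmic reticulum, had 129.8, 319 and 516 TPM as lowest value, median and highest value in the most replicated cells, against 143, 199 and 292 TPM in the least replicated cells (difference 0.62, limma p = 0.00914, adjusted p = 0.702). 8 of the 14 most replicated cells lay above the highest of the least replicated cells. Replication-dependent histone genes (32 of 65 tested) had a median of 0.05, which was -0.07 within the first set, with 2 lower, among them the linker histone gene H1-4 (difference -1.65, limma p = 0.0295). The 82 tested of 86 ribosomal protein genes had a median of 0.00 and the 22 tested of 37 genes of the mitochondrial genome -0.05. Without the set as a term these medians were 0.32 and -0.73.

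**Figure D4:**
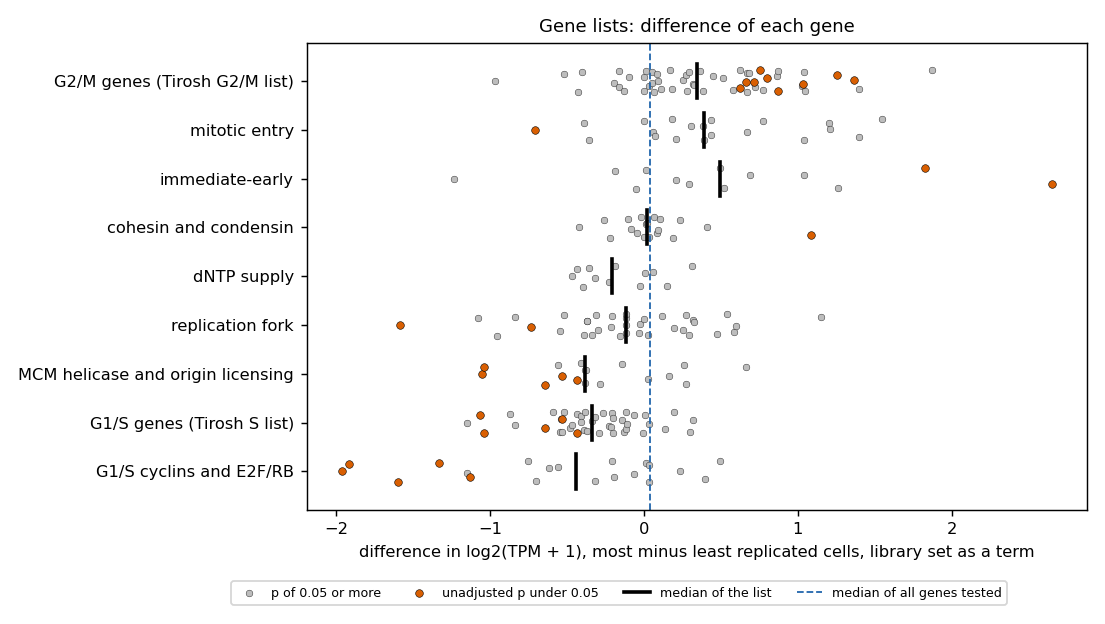
Difference in log2(TPM + 1), most minus least replicated cells with the library set as a term (x axis), for each gene of 9 lists (y axis), in orange at an unadjusted p under 0.05, with a black bar at the median of the list and a dashed line at that of all genes (0.04). The G2/M list has its median at 0.34 and the G1/S list at -0.34.

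The change in copy state could be set against the RNA of the same genes. Of 45404 genes with a copy state, 1981 (4.36%) had a 2-copy share at least 60 points higher in the most replicated cells, 17714 (39.0%) were at 2 copies in both groups and 5701 (12.6%) at 1 copy in both. In gene TPM, the 364 genes with the change that passed the filter on low values had a median difference of 0.04 (interquartile range -0.40 to 0.44), against 0.07 for 7093 genes at 2 copies in both, -0.04 for 652 at 1 copy in both and 0.04 over all genes. 10 of the 364 were higher and 12 lower at an unadjusted limma p under 0.05, set against 3.45% higher and 2.69% lower over all genes. In unspliced RNA, which is gene-body less exon reads, the median was 0.08 over 413 genes (interquartile range -0.24 to 0.53), against 0.06, 0.07 and 0.06. 12 of the 413 were higher and 5 lower at this level, set against 3.36% higher and 2.12% lower over all genes. These medians of the genes with the change moved with the calculation. As a log2 ratio of group means they were -0.05 in TPM and 0.27 in unspliced RNA, without the set as a term 0.07 and 0.13, and at a change of 80 points 0.03 and -0.0049. TPM and scaled unspliced values are shares of the RNA of a cell, so a change of all RNA would not be seen in them.

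**Figure D5:**
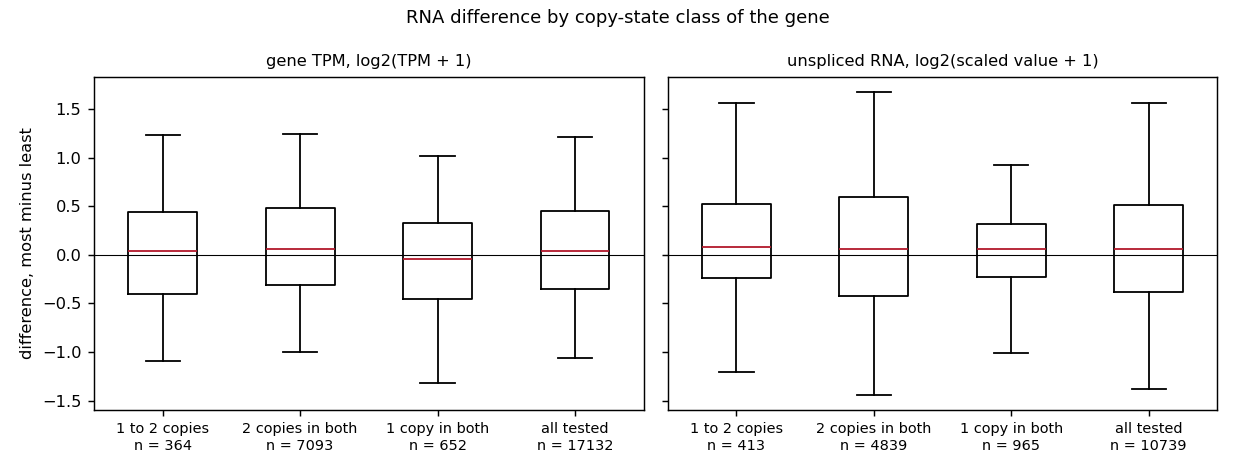
Difference, most minus least replicated cells, in log2(TPM + 1) on the left and log2(scaled unspliced value + 1) on the right (y axis), by copy-state class of the gene (x axis). Boxes show the quartiles, red lines the median and whiskers the 5th and 95th percentiles over genes; the median of the genes that changed from 1 to 2 copies was 0.04 in TPM and 0.08 in unspliced RNA.

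Single genes with a nearly complete change of copy state had RNA values on both sides of 0. RYBP, a subunit of polycomb repressive complex 1, was at 2 copies in 100% of called most replicated cells and in 7.69% of the least replicated cells. Its lowest value, median and highest value were 0, 17.6 and 39.3 TPM in the most replicated cells, against 3.50, 17.8 and 41.6 TPM in the least replicated cells. The difference was -1.49 (limma p = 0.0199, adjusted p = 0.729), with -3.39 in the first set and 0.92 in the second, so its direction was not shared by the sets. CHCHD3, a protein of mitochondrial cristae with 2-copy shares of 100% and 14.3%, had a difference of -0.23 (limma p = 0.660). SMC3, a cohesin subunit at 2 copies in 92.9% of the most and 7.69% of the least replicated cells, had medians of 83.2 and 64.3 TPM (difference 0.41, limma p = 0.462). GSTO1, a glutathione transferase with shares of 84.6% and 0%, had medians of 98.9 and 94.8 TPM (difference -0.35, limma p = 0.244). In unspliced RNA, RYBP had a difference of 2.19 (limma p = 0.0952), with 0.55 and 4.28 within the sets, on the other side from its TPM. SMC3 had an unspliced difference of 1.08 (limma p = 0.159) and CHCHD3 one of -0.11 (limma p = 0.711).

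Of 10739 genes tested in unspliced RNA, 0 passed the limma adjusted threshold in either direction (0% each). At an unadjusted p under 0.05, 361 were higher (3.36%) and 228 lower (2.12%). On the rounded counts, edgeR gave 38 higher and 13 lower. HOTAIRM1, a long non-coding RNA of the HOXA cluster, had unspliced counts, scaled to a common total, with a lowest value, median and highest value of 0, 39.0 and 258 in the most replicated cells, against 0, 1.00 and 126 in the least replicated cells (difference 3.77 on the log2 scale, 5.30 and 1.84 within the sets, limma adjusted p = 0.634). The ranges overlapped, with 13 of 14 most replicated cells above the median of the least replicated cells. DPF2, a subunit of BAF chromatin remodelling complexes, had 0, 10.0 and 27.0 scaled unspliced counts in the most replicated cells, against 0, 0 and 40.4 in the least replicated cells (difference 2.82, 2.98 and 2.62 within the sets, limma adjusted p = 0.634).

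On the lower side, ILKAP, a protein phosphatase, had 0, 10.6 and 82.0 scaled unspliced counts as lowest value, median and highest value in the most replicated cells, against 18.5, 98.4 and 200.6 in the least replicated cells (difference -3.06, -1.88 and -4.56 within the sets, limma adjusted p = 0.634). NPRL3, a subunit of the GATOR1 complex that restrains mTORC1, had 0, 0.154 and 19.1, against 0, 46.9 and 186 (difference -3.56, -3.19 and -4.04 within the sets, limma adjusted p = 0.634). For both genes, all 14 most replicated cells were below the median of the least replicated cells. L3MBTL2-AS1, an antisense transcript whose reads cannot be told apart from those of L3MBTL2, had a difference of -2.21, with -3.47 and -0.60 within the sets (limma adjusted p = 0.634).

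The markers had few unspliced reads, and none of their differences in unspliced RNA reached an unadjusted p of 0.05. MCM3 had 0, 0.123 and 14.9 scaled unspliced counts as lowest value, median and highest value in the most replicated cells, against 0, 4.26 and 72.3 in the least replicated cells (difference -1.05, limma p = 0.240, adjusted p = 0.994). UHRF1 had a difference of -0.34 (limma p = 0.720) and TOP2A one of -0.50 (limma p = 0.615), on the other side from its TPM. MYBL2 had 0, 8.77 and 84.3, against 10.8, 78.8 and 218 (difference -2.69, limma p = 0.00323, adjusted p = 0.784), on the same side as in TPM. NDC80 had 87.05, 331 and 730 scaled unspliced counts in the most replicated cells, against 18.1, 192 and 497 in the least replicated cells (difference 0.90, limma p = 0.0636). Of 20 G1/S genes tested in unspliced RNA 1 was lower and of 26 G2/M genes 2 were higher at p under 0.05, set against 2.12% lower and 3.36% higher over all genes. The 12 G1/S cyclin and E2F/RB genes tested had an unspliced median of 1.19 with 1 higher, on the other side from TPM (-0.44). The 8 mitotic entry genes had one of -0.37 with 1 lower, also on the other side from TPM (0.39).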

How the data were processed

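A DNA and an RNA library that share a number are from 1 cell. The authors aligned DNA reads with BWA to hg38 (version 0.7.17-r1188 per the submitters' notes), called each bin with AneuFinder, and left out chromosomes 1, 15 and X. The deposited copy states (unit: other, coded 1 for 2-copy, -1 for 1-copy and 0 for no call) are per bin and per gene. The deposited TPM values were made by the authors from exon reads with the ramdaq pipeline, and sum to 999999.3 to 1000000.8 per cell. The deposited spliced values equal the gene TPM for all 45404 genes with a copy state, so 1 test covers both. The deposited unspliced values were taken to be expected counts, a unit that is not certain: the authors subtracted exon reads from gene-body reads and set negative values to 0, and 21.3% of the values above 0 were whole (within 0.00501). The totals differ between cells although the table is titled TPM, and some exceed the reads per cell that the methods give. RNA came mainly from the cytoplasm, so nuclear RNA may be under-represented. The authors state a common number of reads per RNA library. TPM itself keeps no depth, so the depth of the exon reads is unknown here.

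For genes with at least 1 TPM in at least 20% of the 56 cells, log2(TPM + 1) was fitted in limma (version 3.58.1, R 4.3.3) with trend, group and library set. Unspliced counts above 0 in over 50% of cells were divided by the total of the cell, multiplied by the median total and fitted likewise, since the study compared values per cell and not by a count model. edgeR (4.0.16, on rounded counts) was an alternative. A pseudocount of 1 understates changes of low genes. P-values were two-sided and adjusted by Benjamini-Hochberg over all genes tested. Per-cell measures were permuted 100000 times within library sets. The named genes were the 3 markers, the genes called or, under 5 in a direction, the 5 of lowest p with a mean of at least 5 TPM and 1 sign in both sets, up to 4 per list, 3 a direction in unspliced RNA and the 10 with the largest rise of the 2-copy share at a mean of at least 20 TPM; the text gives some of them, and 1 gene of the unspliced RNA is not reported here. Alternatives were the filter, pseudocount, scaling, set, group size, test and each cell left out. The members, markers and gene lists were chosen with earlier results of these data known. The use of strand in counting was not stated in what was read here, and overlapping genes and genes with near-identical copies are uncertain. G1 libraries were not used here.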

Additional observations from a re-analysis of the deposited data

How the results depend on the processing

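The 2 genes called higher in TPM became 0 without the set as a term, with 18 cells per group, by the Wilcoxon test, with the doubtful cell replaced by its neighbour, with a pseudocount of 0.1, with the score as a number, with no filter and with a filter at 50% of cells. They became 1 with 10 cells per group and 5 within the second set, and leaving out each cell gave 0 to 3. The 0 called lower became 4 within the second set and 1 with the score as a number, and 0 to 1 leaving out each cell. In unspliced RNA the 0 called higher became 1 within the first set, 1 within the second and 38 in edgeR, with 0 to 2 leaving out each cell, and the 0 called lower became 1 within the first set and 13 in edgeR, with 0 to 0. The causes were not tested. Without the set as a term, the permutation p was 0.0399 for genes detected (difference 622.5) and 0.0173 for the mitochondrial share (-4.36 points). Bins that changed numbered 11928 at 40 points, 192 at 80 and 6742 with 10 cells per group. Directions turned for CHCHD3 (0.10 without the set as a term, 0.68 within the second set, -0.45 to 0.60 leaving out each cell), E2F3 (0.13) and RYBP (0.92) within the second set, unspliced UHRF1 (0.13 within the first set, 0.57 with 10 cells per group, -0.85 to 0.31 leaving out each cell) and unspliced TOP2A (0.17 within the second set, 0.015 with 18 cells per group). Among the values for single genes and gene lists under the alternatives, those leaving out single cells aside, 560 stayed the same. A further 9 turned direction, 16 became weaker and 2 became stronger. For single genes the same means the same direction and side of the threshold, and for lists a similar count of genes on the named side. Weaker means that a call was lost, each time for FKBPL or NFYC-AS1, and stronger that the threshold was passed. No paired analysis was possible because a shared number joins the DNA and the RNA of 1 cell, and no cell is in both groups. All cells are of 1 experiment, and the groups are unequal in library set.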
